A study of Drosophila melanogaster with 2 samples.

Results

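The regions described here are the intronic peaks of the CG14965-eGFP protein that lie away from promoters. Of the 1302 optimal peaks of an anti-GFP ChIP-seq experiment in Drosophila melanogaster, 462 were chosen by position alone. Each has its summit more than 500 bp from every annotated transcription start site (TSS), inside the body of a protein-coding gene and in no annotated exon of any gene. ChIP-seq recovers and sequences the DNA bound to a protein, and a peak is a stretch where that DNA piles up. The chromatin came from whole embryos of both sexes aged 0 to 24 h, from 1 transgenic line that carries CG14965 with GFP fused to its C terminus. It was sonicated to 200 to 800 bp before precipitation. The series has 2 samples in 1 group, biological replicates numbered 3 and 4 and taken from separate biosamples, so no condition was compared with another. The submitters called peaks with a control library; neither that library nor an untagged line was analysed here.

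Introns of developmental genes in Drosophila hold many enhancers, short stretches that drive a gene in particular cells and stages. They also hold binding sites of architectural proteins such as CTCF, a zinc finger protein that binds a long motif with a GC-rich core and helps to set boundaries along the chromosome. A whole embryo mixes all its tissues and stages, so a peak does not say in which cells the DNA was bound.

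The strongest intronic peaks are shown first by their sequence, since several of them share a short word. The 6 below are the strongest that hold the CTCF core, searched as the words AGATGGCGC, AGAGGGCGC, AGGTGGCGC and AGGGGGCGC on either strand within 50 bp of the summit. Each is printed 5′ to 3′ in the orientation of the core, from 40 bases before it to 20 after it, with the core in capitals. Positions are on dm6 and the letters are those of the Release 6 genome from RefSeq.
Eip75B, chr3L:17988305-17988373, plus strand: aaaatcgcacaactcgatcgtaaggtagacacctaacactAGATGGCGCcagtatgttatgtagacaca
Spn, chr3L:2531443-2531511, minus strand: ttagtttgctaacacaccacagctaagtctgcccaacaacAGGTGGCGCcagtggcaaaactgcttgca
Eip75B, chr3L:18019807-18019875, plus strand: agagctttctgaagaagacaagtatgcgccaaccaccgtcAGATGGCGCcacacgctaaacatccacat
CG32264, chr3L:3767955-3768023, minus strand: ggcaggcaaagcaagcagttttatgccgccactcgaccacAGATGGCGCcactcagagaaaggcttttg
Syn, chr3R:10203732-10203800, plus strand: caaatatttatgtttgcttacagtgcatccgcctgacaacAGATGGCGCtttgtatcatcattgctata
Ca-alpha1T, chrX:6110061-6110129, plus strand: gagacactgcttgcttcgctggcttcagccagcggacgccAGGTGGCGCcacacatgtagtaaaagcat

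Among the strongest peaks that lack an exact core, some hold a near match and some do not. SNF4Agamma and Antp, both with a stronger peak than Nrt, hold none within 50 bp of the summit. The 3 below hold a word that differs from a core word at 1 base, in capitals, and are printed on the plus strand over the 101 bp centred on the summit.
sick, chr2L:19887626-19887726: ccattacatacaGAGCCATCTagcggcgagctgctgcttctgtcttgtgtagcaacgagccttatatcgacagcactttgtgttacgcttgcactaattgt
pnt, chr3R:23331453-23331553: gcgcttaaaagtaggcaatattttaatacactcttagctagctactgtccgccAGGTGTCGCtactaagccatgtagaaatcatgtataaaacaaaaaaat
Nrt, chr3L:16769995-16770095: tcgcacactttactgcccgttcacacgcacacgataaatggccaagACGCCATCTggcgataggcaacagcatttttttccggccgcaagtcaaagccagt

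A second word, GTAAACA, which is a core recognised by forkhead-domain factors, was frequent among the peaks without the CTCF core. The 4 strongest intronic peaks with it are printed in the orientation of the word, with 22 bases on either side and the word in capitals; all 4 read on the plus strand.
SNF4Agamma, chr3R:21184932-21184982: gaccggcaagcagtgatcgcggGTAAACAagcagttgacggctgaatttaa
Lk6, chr3R:11761074-11761124: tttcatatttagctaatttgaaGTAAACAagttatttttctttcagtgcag
Lrch, chr2L:17378827-17378877: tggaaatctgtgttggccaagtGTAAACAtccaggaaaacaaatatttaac
CG9663, chr2L:3302159-3302209: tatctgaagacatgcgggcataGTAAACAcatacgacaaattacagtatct

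The location itself was close to what the candidate regions gave. The 462 peaks are 35.5% of the optimal list (95% Wilson interval 32.9 to 38.1), against 33.5% (33.0 to 34.1) or 9518 of the 28405 regions of the pooled list that touch no optimal peak. These candidate regions are weaker entries of the same pooled list and serve as the comparison throughout. Bases that meet the rule are 35.9% of the chromosome arms. Optimal peaks are 4.34% of the 30000 pooled regions in all locations and 4.58% of those that meet the rule. All intervals here cover the counting of peaks alone, because the files give no read numbers and the depth of each replicate is unknown.

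Signal values, a score whose scale is not stated, ran from 69.8 to 3581 among the intronic peaks with a median of 95.3, against a median of 104 among the 840 other optimal peaks. A signal over 1000 was reached by 10 intronic peaks or 2.16%, against 3.10% of the other optimal peaks. A signal over 200 was reached by 60 intronic peaks or 12.99%, against 16.3% of the others. The deposited region was 436 bp wide in 404 intronic peaks, and the whole range was 112 to 652 bp. Some entries overlap: 20 intronic peaks form 10 overlapping pairs, in nub, Lrch, Adf1, Mef2, KCNQ, Prps, simj, Eip75B, Dys and mnb, and both entries of each pair have the same replicate values here. Counted once, these leave 452 intronic peaks. Merging all overlapping optimal entries before the location rule left 450 in 346 genes.

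The strongest intronic peak lay in Eip75B (FBgn0000568), an ecdysone-induced nuclear receptor, at chr3L:17988015-17988666. Its signal was 3581 in the pooled list, 2196 in replicate 3 and 1401 in replicate 4. It ranked 4 in the list of replicate 3 and 5 in that of replicate 4, and it stood in intron 4 of 7, 6483 bp from the nearest TSS. Next came SNF4Agamma, the gamma subunit of the AMP-activated kinase, at chr3R:21184634-21185203 whose pooled signal was 3229, beside 1950 in replicate 3 and 1292 in replicate 4. The peak of sick, a gene of actin regulation and axon growth, at chr2L:19887411-19887945 had 2914, with 1625 in replicate 3 and 1301 in replicate 4. These 3 peaks ranked between 4 and 13 in both replicates.

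Spn, the synaptic phosphatase scaffold Spinophilin, had a peak of 2401 with 1382 in replicate 3 and 1037 in replicate 4. The ETS factor gene pnt, a nuclear effector of EGF receptor signalling, had 2192, with 1311 in replicate 3 and 886.7 in replicate 4. A second Eip75B peak at chr3L:18019601-18020124 had 2164, with 1439 in replicate 3 and 745.7 in replicate 4. CG32264 had 2148, with 1216 in replicate 3 and 943.3 in replicate 4. The remaining 3 were in Syn, which encodes the synaptic vesicle protein Synapsin (1671), Ca-alpha1T, a T-type calcium channel subunit (1440), and the Hox gene Antp (1131). In all 10 the value in replicate 3 was above that in replicate 4.

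The next 15 peaks had signals between 352.2 and 969. They lay in Nrt, a neuronal adhesion protein (969), ush, a cofactor of GATA factors (833.7), Trim9, a ubiquitin ligase of axon guidance (659.7), CG43658 (624.4), CG15431 (602.8), and ph-p, a Polycomb group protein (557.4). Lk6, a kinase of the translation factor eIF4E, had 531, and cno, the junction protein Canoe, had 505.6. Lrch had 473.7, CG11050 had 471.2, a second Antp peak had 448.5, CG9663 had 426.4, goe had 380.8, CG14082 had 358 and MSAmiP had 352.2. All of the 25 strongest intronic peaks overlapped one of the 1302 highest regions in both replicates. Their lowest rank was 96 in replicate 3 and 93 in replicate 4.

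Of the 462 intronic peaks, 271 or 58.7% (54.1 to 63.1) overlapped one of the 1302 highest regions of each replicate by at least 1 bp, against 67.0% (63.8 to 70.1) of the other optimal peaks. The optimal list is ranked on both replicates pooled, so these shares describe the list and test nothing. All peaks of ranks 1 to 25 and 26 to 100 were high in both replicates, as were 91 of those ranked 101 to 200 and 80 of 262 or 30.5% (25.3 to 36.4) beyond rank 200. The median signal of the intronic peaks was 60.2 in replicate 3 and 42.0 in replicate 4, and replicate 3 was above replicate 4 in 380 of the 459 peaks with a region in both. Spearman's rho of the signals was 0.57 across these 459 peaks, which share their libraries and are not replicates.

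**Figure D1:**
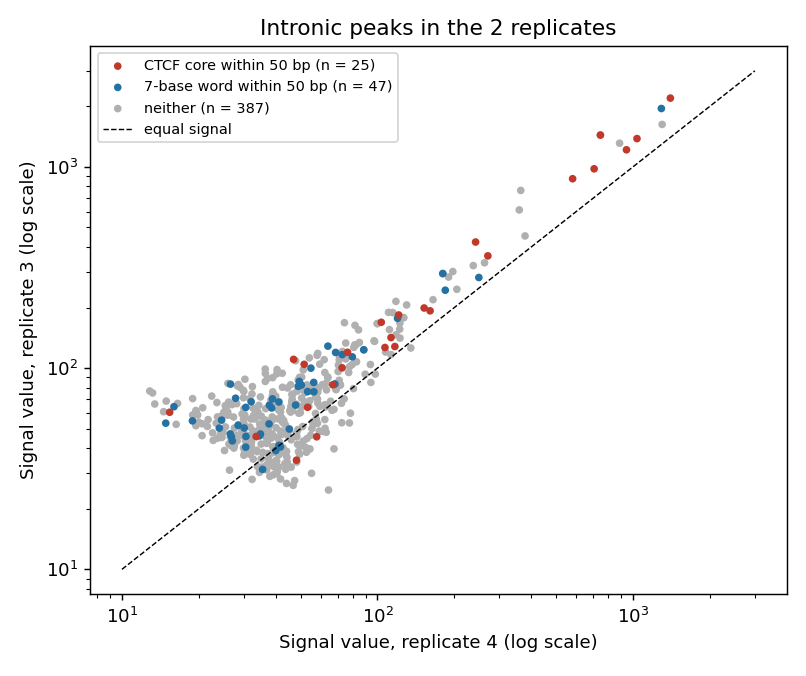
Signal value of each intronic peak with a region in both replicates, in replicate 3 (vertical) and replicate 4 (horizontal), both on log scales without units; red marks peaks with the CTCF core, blue those with the 7-base word GTAAACA, grey the rest, and the dashed line equal signal. The strongest peaks form a narrow band above the line and the weak peaks a broad cloud.

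The widest disagreements were all among weak peaks that were high in replicate 3. A peak in aop, which encodes the ETS repressor Yan, had rank 412 in replicate 3, where its signal was 76.9, and rank 27713 in replicate 4, where it was 12.9. CG32428 ranked 429 in replicate 3 and 26191 in replicate 4, and the furin protease gene Fur1 ranked 561 in replicate 3 and 25017 in replicate 4. The bHLH factor gene crp ranked 668 in replicate 3 and 20621 in replicate 4, and shn, a zinc finger factor of Dpp signalling, ranked 514 in replicate 3 and 19421 in replicate 4. A further 3 intronic peaks, in CG4496, bun and at a second site in Spn, had no region in replicate 4 and signals of 69.4 to 76.2 in replicate 3. The 5 widest rank differences and these 3 peaks all had pooled signals under 100.

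The CTCF core stood within 50 bp of the summit in 25 of 462 intronic peaks or 5.41% (3.69 to 7.87), against 37 of 9518 candidate regions or 0.389% (0.282 to 0.535). It was found in 19 of 587 promoter peaks and in 33 of the 253 remaining optimal peaks. AGATGGCGC was in 15 intronic peaks, AGGTGGCGC in 10, AGGGGGCGC in 2 and AGAGGGCGC in 1; 3 peaks had a pair of matches. It became rarer as the signal fell: it was in 10 of the 25 strongest peaks, 10 of the next 75, 1 of those ranked 101 to 200, and 4 of the last 262. Peaks with the core had a median signal of 258, against 93.4 for those without it. GC content averaged 50.1% in windows with the core and 36.2% in those of the other intronic peaks. Among windows above the members' median GC content of 35.6%, the core was in 24 of 216 intronic peaks or 11.1%, against 0.506% of candidate regions.

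With 1 mismatch allowed, the core was in 49 intronic peaks or 10.6% (8.12 to 13.8), against 4.49% (4.09 to 4.92) of candidate regions. It was then in 8.18% of promoter peaks and 26.5% of the remaining optimal peaks. In the top 10 the exact core was in 6 peaks and the 1-mismatch core in 8, the additions being sick and pnt shown above. SNF4Agamma and Antp, of signals 3229 and 1131, had neither.

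In the strongest peaks the core lay within a narrow range of distances from the summit. Measured in the orientation of the core, its centre lay 24 to 28 bp 3′ of the summit in all 6 of the top 10 peaks that hold it. The summit was 5′ of the core centre in 19 of all 28 matches, with a median offset of 18 bp, and weaker peaks were spread from -39 to 45 bp. The core ran on the strand of its host gene in 14 of 28 matches. In all sequence that meets the location rule, 28 of 890 core words or 3.15% (2.19 to 4.51) lay within 50 bp of an optimal summit. The share was 5.40% for AGATGGCGC, 4.02% for AGGTGGCGC, 1.00% for AGGGGGCGC and 0.613% for AGAGGGCGC. The other copies lay at no optimal summit.

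**Figure D2:**
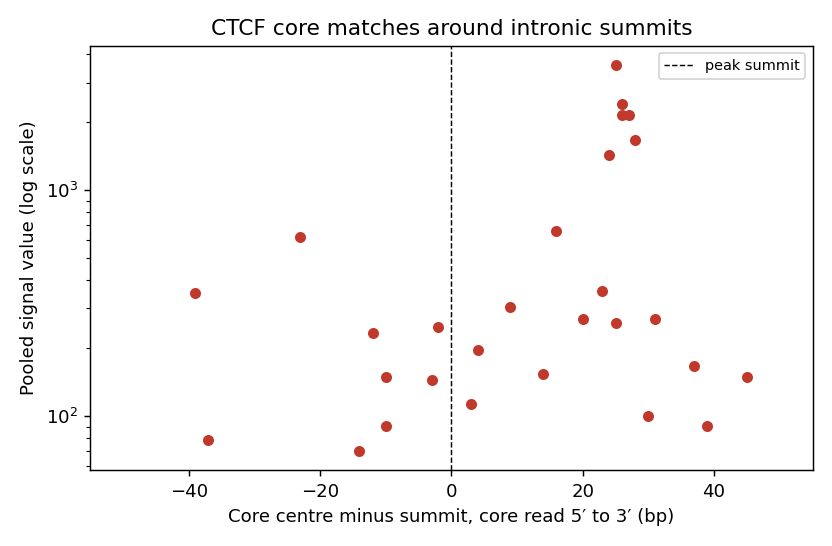
Offset of each CTCF core match in bp from the summit of its intronic peak, with the core read 5′ to 3′ (horizontal), against pooled signal on a log scale without units (vertical); each point is 1 of 28 matches and the dashed line is the summit. The 6 matches in peaks with signals over 1000 sit together at 24 to 28 bp, and weaker ones lie on both sides.

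GTAAACA was within 50 bp of the summit in 48 intronic peaks or 10.4% (7.93 to 13.5), against 300 or 3.15% (2.82 to 3.52) of candidate regions. It was in 27 of 587 promoter peaks and 9 of 253 remaining peaks. This word, and the first 3 of the other words described below, were chosen after their values were seen, from rankings of all words of 6, 7 and 8 bases in several ranges of signal, so a high share is what that choice selects. Unlike the CTCF core it kept its share over the range of signal, at 16.0% of the 25 strongest, 10.7% of ranks 26 to 100, 10 of the 100 peaks of ranks 101 to 200, and 9.92% of the last 262. No intronic peak held both words. Of the 25 peaks with the core, 24 lay above the members' median GC content, where GTAAACA was in 17.6% of intronic peaks. The peaks with the core are few, and this lack of overlap was not tested. Read backwards, as ACAAATG, the same letters were in 4.55% of intronic peaks, against 3.87% of candidate regions. At 50 to 100 bp from the summit GTAAACA was in 3.03% of intronic peaks, against 2.78% of candidate regions, and at 100 to 150 bp in 4.11%, against 2.68%. At 150 to 200 bp it was in 2.60% of intronic peaks, against 2.52% of candidate regions, and at 200 to 250 bp in 3.03%, against 2.53%.

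Base composition divided the peaks with GTAAACA. Above the median GC content it was in 38 of 216 intronic peaks or 17.6%, against 2.63% of candidate regions. At or under it, the word was in 10 of 246 intronic peaks or 4.07%, against 4.41% of candidate regions, so the AT-rich peaks showed no higher share. Among the highest regions of each replicate taken alone it was in 11.5% of intronic regions of replicate 3, against 3.38% of its lower regions, and in 7.03% for replicate 4, against 2.61%. The mean GC content of the 101 bp at the summit was 36.9% ± 8.35 in intronic peaks and 41.4% ± 8.85 in candidate regions (SD over regions).

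**Figure D3:**
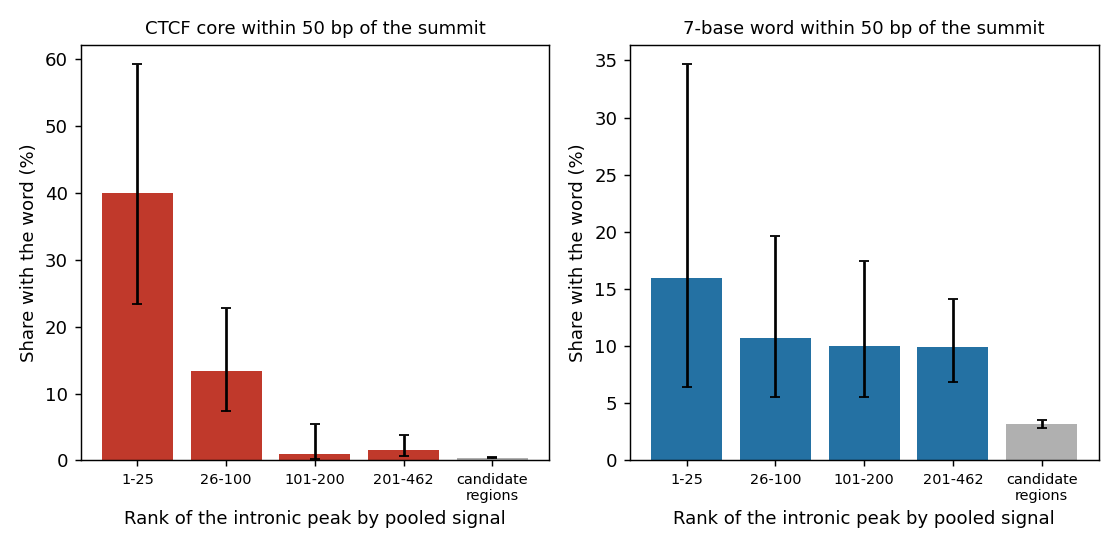
Share in percent of intronic peaks with the CTCF core (left) or the 7-base word GTAAACA (right) within 50 bp of the summit, by rank of pooled signal, with the candidate regions in grey at the right; bars start at 0, the vertical scales differ and lines are 95% Wilson intervals. The core falls from 40% of the 25 strongest peaks to 1.53% of the weakest group, while GTAAACA stays between 9.92% and 16%.

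Other words were tried in the same windows. Their shares were not taken separately above and below the median GC content, so how far they depend on base composition was not tested. GC content averaged 36.9% in intronic peaks and 41.4% in candidate regions. GTAAATA was in 9.74% of intronic peaks, against 3.74% of candidate regions, CTATTTA in 7.58%, against 2.15%, and CTGCTTGC in 1.95%, against 0.294%. Of words listed for other factors, the Su(Hw) word TGCATACT was in 7 intronic peaks or 1.52% (0.736 to 3.09), against 0.662% of candidate regions, and TATAAA in 14.3% (11.4 to 17.8), against 11.0%. The E-box CAGCTG was in 4.33%, against 4.48%, the E-box CACGTG in 1.52%, against 1.30%, and the homeodomain core TAATTA in 6.49%, against 6.77%. GAGAGAG, bound by the GAGA factor, was in 0.866%, against 1.75%, and the Pho word GCCATNTT in 1.30%, against 2.52%. CCAATTGG was in 3 intronic peaks or 0.649% (0.221 to 1.89), against 0.158% of candidate regions, and TATCGATA in 1 or 0.216%, against 0.126%. CAGGTAG was in 2 or 0.433%, against 0.536%, and CCAATAAG in 2 or 0.433%, against 0.294%. The words CCGGAAGT and GGTCACAC were in 0 of 462, which allows a share of up to 0.649%, against 0.147% and 0.189% of candidate regions. All were searched on both strands, and several overlap in their letters.

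Words of 8 bases were ranked on 2 separate sets of arms. On 3L, 3R and X, with 305 intronic peaks, the word furthest above the candidate regions was AGATGGCG, and 4 of the 12 highest were parts of the CTCF core. On the arms of chromosome 2, with 157 intronic peaks, it was AACAAACA, and none of the 12 highest was part of the core. AACAAACA was in 8.92% of intronic peaks on chromosome 2, against 1.85% of candidate regions there, but in 2.62% on the other arms, against 2.59%. AGATGGCG was in 4.59% on 3L, 3R and X, against 0.236%, and in 2.55% on chromosome 2, against 0.256%. Of the 12 highest words in each ranking, 10 were more frequent in intronic peaks than candidate regions on the arms not used for it. CAAACAAG, ranked on chromosome 2, was in 2.62% on the other arms, against 0.876%. AACAAACA is counted among these words, as is AAAACAAA, in 3.93%, against 3.82%. AGGTGGCG, ranked on 3L, 3R and X, was held by 1 intronic peak on chromosome 2. The same share over all words of 8 bases was not measured. A word holding GTAAACA was among the 12 in both rankings.

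The intronic peaks lay nearer to start sites than the candidate regions did, within the limit set by the rule. The median distance to the nearest TSS was 2596 bp in intronic peaks, against 3492 bp in candidate regions and 5367 bp over all bases that meet the rule. Peaks were found at 22.2 per Mb of such sequence between 501 and 1000 bp of a TSS, 15.3 between 1001 and 2000 bp, 10.6 between 2001 and 5000 bp, and 9.25 between 5001 and 10000 bp. Beyond 20000 bp the density was 1.46 per Mb, from 11 peaks. The nearest TSS belonged to the host gene in 71.0% (66.7 to 74.95) of intronic peaks, against 63.3% (62.4 to 64.3) of candidate regions. Of the peaks just outside the limit, CG42671 was 504 bp from a TSS with a signal of 123.6, RhoGAP92B 507 bp with 75.7 and lola 510 bp with 83.9. Just inside it, CG31523 was at 490 bp with 70.3, CAP at 489 bp with 110.2 and omd at 487 bp with 103.2. In all, 180 optimal peaks met the rest of the rule but lay within 500 bp of a TSS.

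**Figure D4:**
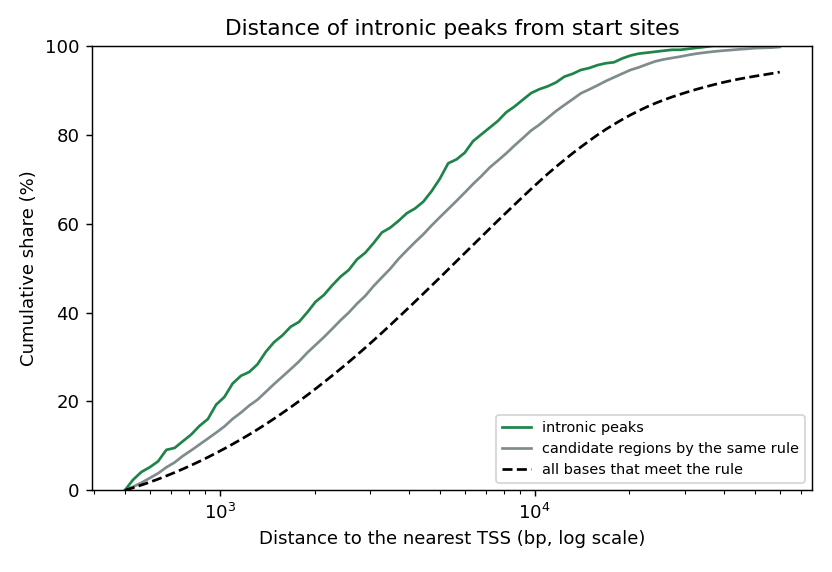
Cumulative share in percent (vertical) of intronic peaks, candidate regions by the same rule and all bases that meet the rule, against distance to the nearest TSS in bp on a log scale (horizontal). The curve of the intronic peaks lies above the others, with medians of 2596, 3492 and 5367 bp.

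First introns, which often carry enhancers in Drosophila, held 230 intronic peaks or 49.8% (45.2 to 54.3) by the longest transcript of the host with an intron there, against 39.5% (38.5 to 40.5) of candidate regions. Counting a first intron of any transcript, the shares were 73.2% (68.9 to 77.0) of intronic peaks and 56.0% (54.97 to 57.0) of candidate regions. Distance from the TSS moves with this measure, so it was also taken within ranges of distance. Between 501 and 1000 bp the shares were 84.0% (75.3 to 90.1) of intronic peaks and 75% (72.6 to 77.3) of candidate regions. Between 2001 and 5000 bp they were 74.2% (66.0 to 81.0) of intronic peaks and 56.2% (54.4 to 58.1) of candidate regions. Beyond 5000 bp they were 59.4% (51.1 to 67.3) of intronic peaks and 42.0% (40.4 to 43.6) of candidate regions. Peaks with the CTCF core were in a first intron of some transcript in 40% of cases, against 75.1% of the other intronic peaks. The intron itself had a median length of 11895 bp for intronic peaks and 12054 bp for candidate regions.

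On the X chromosome there were 104 intronic peaks or 22.5% (18.9 to 26.5), against 15.7% (14.97 to 16.4) of candidate regions, 18.8% of bases that meet the rule and 15.2% (12.97 to 17.8) of the other optimal peaks. The same share in the highest intronic regions of each replicate alone was 22.4% for replicate 3, against 16.8% of its lower regions, and 19.5% for replicate 4, against 14.6%. The other large arms held 75 to 102 intronic peaks each. Chromosome 4 held 0 of 462 intronic peaks, which allows a share of up to 0.649% by 3 counts and 0.825% by the Wilson interval, against 0.693% of candidate regions. Chromosome 4 has 0.8185% of the bases that meet the rule. The candidate share lies above the limit by 3 counts and below the Wilson limit, so these counts do not decide whether the share is lower.

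The 462 peaks lay in 348 host genes, 3.82% of the protein-coding genes with any base that meets the rule and 13.5% of those with a candidate region or peak there. A single intronic peak was found in 273 genes, 2 or more in 75, 3 or more in 27 and 4 or more in 7. With overlapping entries counted once, 2 or more were found in 70 genes, 3 or more in 25 and 4 or more in 5. Host genes had a median length of 24488 bp, against 14032 bp for the 2535 genes that host a candidate region. The 9518 candidate regions reach far more genes than the 462 peaks, so these medians are not matched for the number of regions. Taken by region, the median intron length was 11895 bp for peaks and 12054 bp for candidate regions. In 20 cases the summit lay in the bodies of 2 or more genes and was given to 1 of them.

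Eip75B had 8 intronic peaks, the most of any gene, over 51619 bp of its 113744 bp. Their signals were 3581, 2164, 137.2, 117.2, 115.5, 78.9, 76.8 and 69.8. The peaks of 2164 and 78.9 are summits of 1 deposited region. The 2 highest carried the CTCF core and the other 6 did not. Its 8 peaks were 15.7% of the 51 intronic peaks and candidate regions in the gene, against 4.63% over all genes. Raf, the kinase that passes signals from receptor to MAP kinase, had 5 in 1 intron, with pooled signals of 265.5, 115.8, 111.7, 77.1 and 74.8. None of these 5 had the CTCF core and 1 had GTAAACA.

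A further 5 genes had 4 intronic peaks, an overlapping pair included in Dys and in simj. The strongest signal was 833.7 in ush, 336.8 in Tlk, a chromatin-linked kinase gene, 210.6 in Dys, which encodes dystrophin, 153.8 in the nuclear receptor gene Hr4, and 97.6 in simj, a subunit of the NuRD complex. The 20 genes with 3 were CG13917, CG1677, CG31145, CG32264, CG42238, CG9328, CG9837, CHES-1-like, Lrch, NFAT, RapGAP1, babos, crp, dlp, kirre, mnb, px, rdx, shn and sick. Among these, CG9837 had all 3 within 2064 bp of the single intron of its longest transcript and no other candidate region, with signals of 247.3, 129.2 and 93.2. In Lrch the 3 lay within 1198 bp and reached 473.7, and 2 of them, of signals 473.7 and 87.6, overlap. An overlapping pair was also among the 3 of mnb. In kirre, a muscle founder adhesion gene of 394149 bp, the 3 were spread over 74542 bp and reached 140.1. Of the 27 genes with 3 or more, 4 had a peak with the CTCF core: Eip75B, Hr4, CG32264 and RapGAP1.

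**Figure D5:**
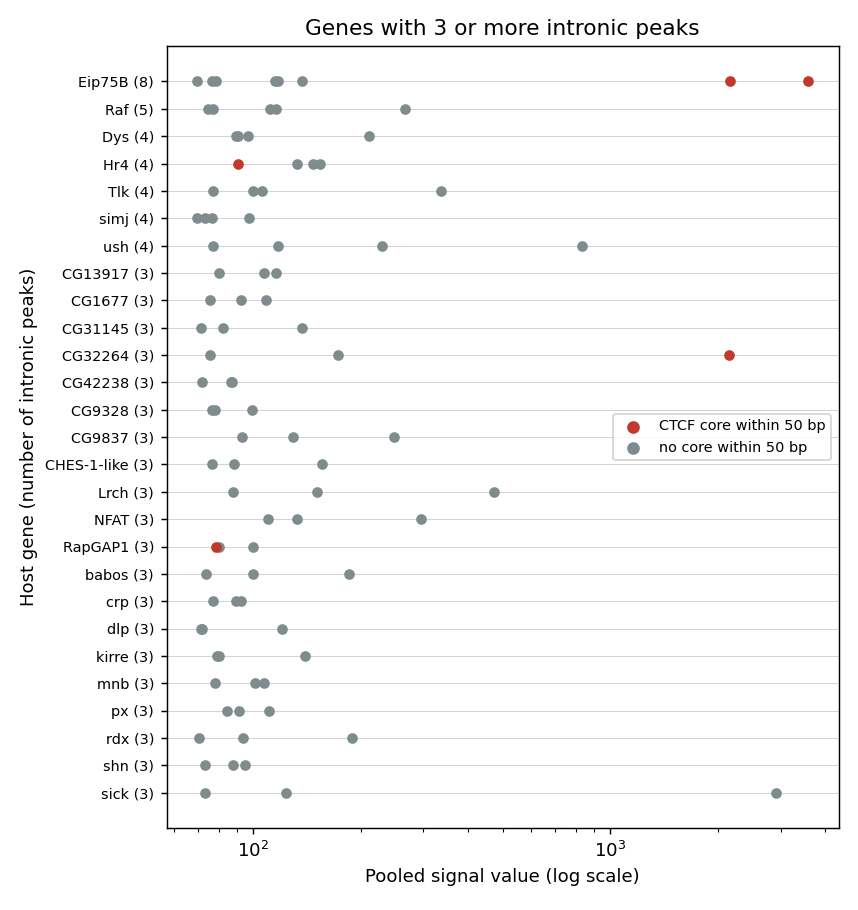
Pooled signal (horizontal, log scale without units) of every intronic peak in the 27 genes that hold 3 or more, 1 gene a row with its number of peaks in brackets; red marks peaks with the CTCF core and grey those without it. Signals over 1000 occur in Eip75B, CG32264 and sick, and most genes hold peaks under 200 only.

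Among gene lists, the hosts are given as shares of the genes with a candidate region or peak that meets the rule, for which the share over all genes is 13.5%. Nuclear receptor and ecdysone response genes held a peak in 5 of 19 genes, or 26.3%, with 17 peaks, led by Eip75B (3581), EcR (167.4), Hr4 (153.8) and ImpL2 (136.8). Of these 17 peaks 8 were in Eip75B. EGF receptor pathway and ETS genes held one in 8 of 25, or 32.0%, led by pnt (2192), Star, annotated as S (301.5), Raf (265.5) and the ligand gene vn (181.4). Segmentation and dorsoventral genes held one in 8 of 22, or 36.4%, led by ush (833.7), Mad (225.2), nkd (125.6) and cad (113.7). Polycomb and trithorax group genes held one in 6 of 12, led by ph-p (557.4), Trl (203.2), jing (97.5) and psq (95.2). Intronic peaks were 4.63% of the peaks and candidate regions over all genes. In the order given, these lists had 8.33%, 7.65%, 8.78% and 10.5% by that measure.

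The other lists had gene shares of 23.5% or less. Axon guidance genes had a peak in 10 of 51 or 19.6% (sick, NetB, dlp and fra strongest). Small GTPase and cytoskeleton genes had one in 8 of 34 or 23.5% (sick, Spn, spir, tsr). Neural fate factors had one in 7 of 32 or 21.9% (nub, brat, elav, shep). Muscle genes had one in 5 of 23 or 21.7% (Mef2, kirre, bves, mbc). Notch and bHLH genes had one in 3 of 13 or 23.1% (sim, N, fng). Synapse and ion channel genes had one in 7 of 55 or 12.7% (Spn, Syn, hiw, KCNQ). Homeobox genes had one in 6 of 52 (Antp, nub, zfh1, cad) and adhesion and recognition genes in 7 of 65 (Nrt, kirre, beat-Ib, caps), 11.5% and 10.8%. Metabolic energy sensing genes had one in 2 of 12, SNF4Agamma (3229) and InR (273.7), and insulator protein genes in 1 of 5, Trl. Cytosolic ribosomal protein genes had one in 0 of 2, with little intronic sequence that meets the rule. Gene shares do not allow for the number of regions in each gene. By peaks and candidate regions together, insulator (16.7%, from 1 peak), small GTPase (5.85%), synapse (5.79%) and muscle genes (5.71%) were above the 4.63% over all genes. Metabolic (4.49%), neural fate (4.23%), homeobox (3.19%), axon guidance (3.15%), Notch (2.94%), adhesion (2.16%) and ribosomal genes (0%) were below it. The lists overlap, are small and differ in gene length, and they were compared by no test.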

How the data were processed

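The study measured anti-GFP ChIP-seq in 2 samples of 1 group. The authors deposited peak lists on dm6 and dm3; the dm3 lists were not used here. The deposited signal value is a score whose scale is not stated. The deposited −log10 significance was used only to break ties in rank. A control library was used by the authors, per the labels' text files; no source used here names the aligner or the peak caller. Depth per replicate cannot be read from these lists, and precision was taken from counts of peaks alone.

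Summits were placed in the Ensembl BDGP6 annotation (release 115) and windows read from the Release 6 genome with Python 3.11.15, numpy 2.4.6, pandas 2.3.3 and scipy 1.17.1. Where a summit lay in several genes, 1 host was used. The first intron was taken from the longest transcript of the host with an intron there. Shares have 95% Wilson intervals, and a share of 0 has the limit set by 3 counts. Location, overlap and word searches were tested on simulated data. No test over samples was possible with 1 group.

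The members, gene lists and motif words were chosen with earlier results of these data known. The word GTAAACA and the words described with it, the mismatch rule, the limits of rank and GC content, and the core offset were chosen after the data were seen. Of 700 listed symbols 30 matched no protein-coding gene. Genes were named by a rule: the 25 strongest peaks, genes with 3 or more, up to 4 per list, the 3 nearest on each side of 500 bp and the 5 widest rank differences. Alternatives varied the distance limit, summit, threshold, overlap, window and replicate.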

Additional observations from a re-analysis of the deposited data

How the results depend on the processing

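The numbers of intronic peaks and of host genes each stayed within 1.5 times their value under 6 of 8 alternatives. Of these, the midpoint of the peak gave the same 462 peaks and 348 genes. It could hardly move them, because regions 436 bp wide, 404 of the intronic peaks, have their summit at the midpoint. A distance limit of 2000 bp left 266 peaks in 201 genes, with 43.2% in the first intron. Keeping the 651 strongest optimal peaks left 206 peaks in 174 genes, with a median signal of 141, 95.6% high in both replicates and 10.2% with the CTCF core. The median signal was 61.5 without replicate 4 and 42.5 without replicate 3, each on the scale of the replicate that was kept. With 651 instead of 1302 highest regions per replicate, 34.8% were high in both; with 2604 it was 85.9%. A window of 25 bp gave the core in 2.60%, and 1 mismatch, added after seeing the data, in 10.6%. First introns of any transcript held 73.2%. For GTAAACA, with all its alternatives added after seeing the data, a window of 25 bp gave 7.14%, leaving out 1 replicate 7.03 to 11.5%, peaks at or under the median GC content 4.07% and those above it 17.6%. The cause of these moves was not tested. That stricter limits leave fewer peaks follows from the limits themselves. No paired analysis was possible because both samples belong to a single group. Depth is unknown, so its part in weak peaks cannot be given.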
